A study of Mus musculus with 2 samples.

Results

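The small leucine-rich proteoglycans are secreted matrix proteins built around a curved array of leucine-rich repeats. Their 10 members taken here were Dcn, Bgn, Lum, Fmod, Ogn, Prelp, Aspn, Kera, Omd and Epyc, chosen by gene symbol, and all 10 had a row among the 52636 genes of the deposited tables. RNA-seq was done on 2 libraries labelled as retina of C57BL/6 mice at 8 weeks of age, with retinas of 3 mice pooled into each. The genotypes are wild type (WT, 1 library) and a knockout of miR-29a (KO, 1 library), and the labels do not say how the allele was made or in which cells it acts. With 1 library per group there is no replicate check and no test, so every difference below is between these 2 libraries and not between genotypes.

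The proteoglycans of this family bind fibrillar collagen, set the width and spacing of its fibrils, and hold growth factors such as TGF-beta in the matrix. Class I holds decorin (Dcn) and biglycan (Bgn), which carry chondroitin or dermatan sulfate chains, and asporin (Aspn), which lacks such a chain. Class II holds lumican (Lum), fibromodulin (Fmod), keratocan (Kera), osteomodulin (Omd) and PRELP (Prelp), most of which can carry keratan sulfate, and class III holds osteoglycin (Ogn) and epiphycan (Epyc). In the eye they are best known from cornea and sclera. MicroRNAs of the miR-29 family pair through their seed with 3' UTRs of many collagen and matrix genes.

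The libraries held 26805787 and 24876830 counts. The targeted gene, Mir29a, had 0 counts in both and checks no label. The libraries went against the tissue on their labels. Of 30 photoreceptor and retinal neuron markers, 25 lay under 1 CPM (a gene's count scaled to the library total) in each library, 14 were at 0 in both, and the list summed to 106 CPM in the WT-labelled library and 80.2 CPM in the KO-labelled library. The 19 fibroblast markers outside the family summed to 17661 and 17979 CPM. Of these, 3 were 2-fold lower and 0 higher (2.82% and 4.47% of all genes), with a median log2 ratio of -0.26. The other marker lists summed to 337 and 206 CPM (tendon), 721 and 266 CPM (cartilage), 941 and 1267 CPM (keratocyte and cornea), 4630 and 17556 CPM (bone, nearly all from Spp1, with Ibsp at 0 in both), 157 and 192 CPM (smooth muscle and pericyte), 28.1 and 53.3 CPM (endothelium), 289 and 717 CPM (macrophage and microglia) and 4618 and 5240 CPM (Mueller glia and astrocyte, mostly from Vim, with Aqp4 at 0 in both). The libraries are therefore called by their labels.

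The sequences of the miR-29 family are given first, since the study removed miR-29a and a target gene would be found by its seed. The mature forms below are from RefSeq on GRCm38.p6, with the seed (bases 2 to 8) in capitals. All share that seed.
miR-29a-3p: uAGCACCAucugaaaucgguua
miR-29b-3p: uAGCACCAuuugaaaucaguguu
miR-29c-3p: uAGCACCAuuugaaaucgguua
The reverse complement of the seed, TGGTGCT, was searched on the transcript strand in the longest annotated 3' UTR of each member. It was present in 1 of 10 members, Prelp, and absent from Dcn, Bgn, Lum, Fmod, Ogn, Aspn, Kera, Omd and Epyc. Among all 21020 genes searched, 13.1% held it, and 16.1% did of the 11455 that reached 50 counts in either library. The Prelp match began at base 1792 of a 3' UTR of 2302 bases and is printed with its surroundings, the match in capitals (chromosome 1, positions 133910808 to 133910814, minus strand, GRCm38).
Prelp site: tgaaagcaaccTGGTGCTacagcctggac
The log2 ratio of Prelp was -0.16. Among all genes with 50 or more counts, the median was 0.14 with the heptamer and 0.05 without. On the list of fibrillar and fibril-associated collagens with Lox, 10 of 14 measured genes held the heptamer. Their median log2 ratio was 0.39, and that of the 4 without it was -0.64. On the other lists described below with a gene that held it, the medians with and without the heptamer were 0.57 and 0.08 for linker, chondroitin and dermatan sulfate synthesis, 0.07 and 0.10 for receptors, ligands and partners, -0.01 and 0.06 for processing and cleavage, and -0.31 and 0.06 for other core proteins. Genes with the heptamer on these lists numbered 5 of 26, 9 of 26, 2 of 15 and 4 of 20 searched, respectively, and Cd44 was on 2 of them. The order of the 2 medians was thus not the same on every list, but some of these medians rest on few genes. Such a match is a description of letters and does not show that a microRNA acts there.

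Decorin and biglycan were the 2 most counted members in both libraries, and their order changed between them. The 10 members together took 0.368% of counts in the WT-labelled library (3678 CPM) and 0.437% in the KO-labelled library (4366 CPM). Bgn (55136 and 43431 counts), Dcn (26680 and 47148) and Lum (11177 and 14656) made up 94.3% and 96.9% of the members' counts. The remaining members ranged from 141 CPM for Ogn down to 0.0373 CPM for Kera in the WT-labelled library. By FPKM, which is per transcript length, Bgn was in the top 1.08% and 1.18% of detected genes, Dcn in the top 2.06% and 1.02%, and Lum in the top 2.08% and 1.36%.

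**Figure D1:**
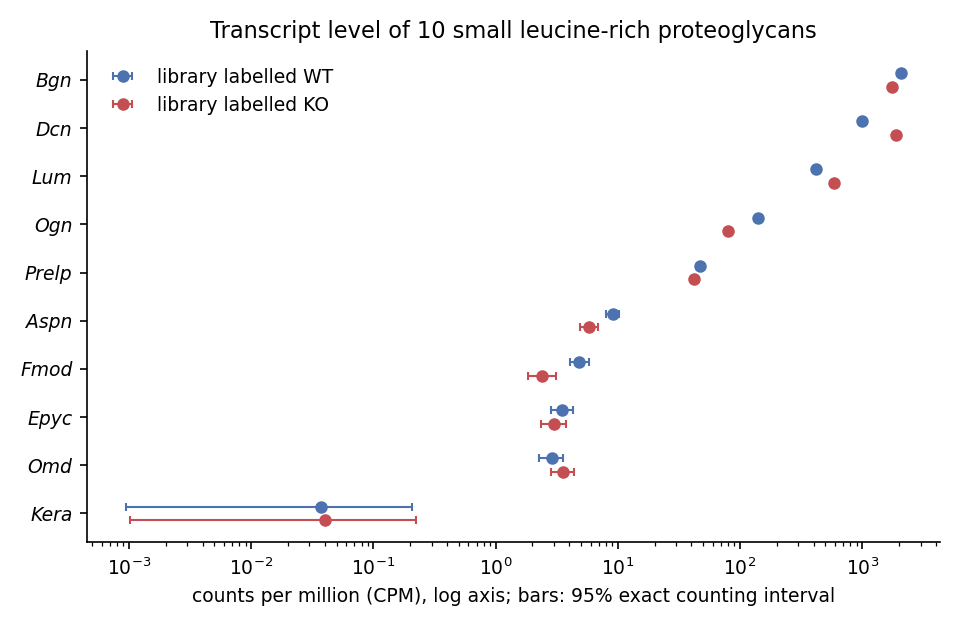
Level of each member in CPM on a log axis, with 95% exact counting intervals, in the WT-labelled library (blue) and the KO-labelled library (red). Levels run from 2057 CPM for Bgn to 1 count in each library for Kera, and Dcn passes Bgn in the KO-labelled library.

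Levels of different genes can be compared only per transcript length, and the deposited FPKM values did this with the length of all annotated exons of a gene joined together. For 90.6% of genes with 50 or more counts, the length implied by count and FPKM was within 5% of that joined length in GENCODE M21. For Dcn the joined length is 5838 bases, with retained-intron transcripts included, but its longest protein-coding transcript has 1758 bases. For Bgn these lengths are 6099 and 2419 bases, while for Lum both are 2448 bases. On the FPKM scale the levels in the WT-labelled library were 357 for Bgn, 180 for Dcn, 180 for Lum, 58.2 for Ogn and 13.8 for Prelp. In the KO-labelled library they were 291 for Bgn, 330 for Dcn, 245 for Lum, 31.4 for Ogn and 11.9 for Prelp. Dcn and Lum were thus level in the WT-labelled library on this scale. As CPM per kilobase of the longest coding transcript, Dcn stood at 566 and 1078, Bgn at 850 and 722, and Lum at 170 and 241, so that Dcn lay well above Lum in both libraries. The total behind the deposited FPKM is not given in the sources used here, and Lum, whose lengths are the same, differed between the scales only through it. The ranking of members was the same under both lengths, with Bgn first in the WT-labelled library and Dcn first in the KO-labelled library. Below Prelp, the FPKM was 4.09 and 2.52 for Aspn, 1.55 and 0.742 for Fmod, 1.45 and 1.20 for Epyc, and 1.35 and 1.60 for Omd. Aspn lay above the other 3 in both libraries beyond the counting intervals. The neighbours in order among Fmod, Epyc and Omd had overlapping intervals of FPKM in each library. Omd and Fmod, which changed places, did not overlap in the KO-labelled library (1.28 to 1.97 against 0.566 to 0.955).

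**Figure D2:**
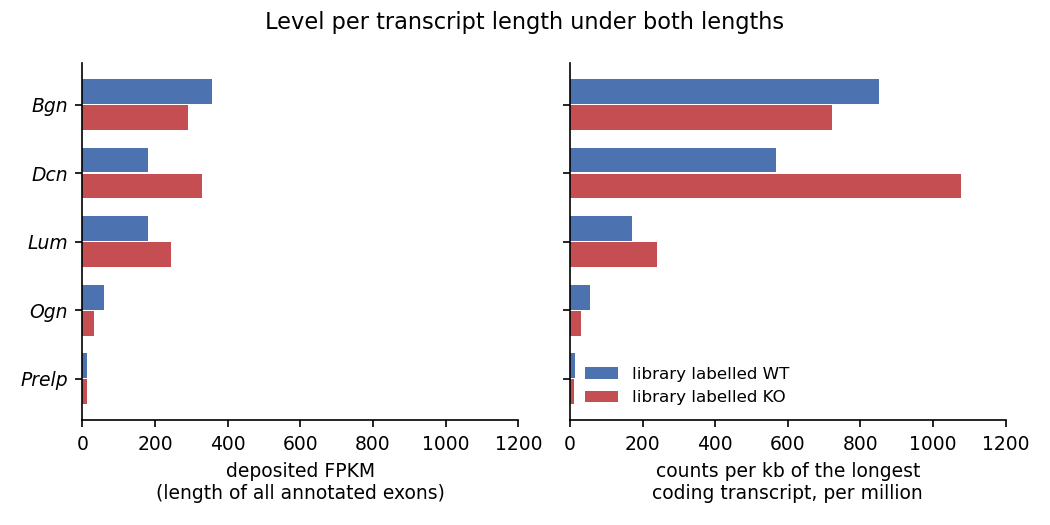
Level per transcript length of the 5 most counted members, as deposited FPKM (left) and as CPM per kilobase of the longest coding transcript (right), in the WT-labelled (blue) and KO-labelled (red) libraries. Bars are single values with no replicates; Dcn and Lum are level in the WT-labelled library on the left and far apart on the right.

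The next question was how the family differed between the library lacking miR-29a by its label and the wild-type library. Of the 10 members, 9 reached 50 counts in either library and were compared as log2 ratios of CPM after 0.5 was added to each. None of the 9 was 2-fold higher and none was 2-fold lower, where 4.47% of 12382 genes were higher and 2.82% lower by that much. The median log2 ratio of the 9 was -0.19, against 0.06 over all genes. At 1.5-fold, 1 member was higher (Dcn) and 3 were lower (Ogn, Aspn and Fmod), where 13.3% of all genes were higher and 8.88% lower. The counting interval lay above equality for 2 members (40.3% of all genes) and below it for 5 members (31.2% of all genes). Such intervals and floors hold the error of counting alone, because there is no replicate to show variation between mice or preparations. They may be too narrow even for counting, since PCR copies of a molecule could not be told from separate molecules. In a bulk library, fewer cells of a type and less RNA per cell cannot be told apart.

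**Figure D3:**
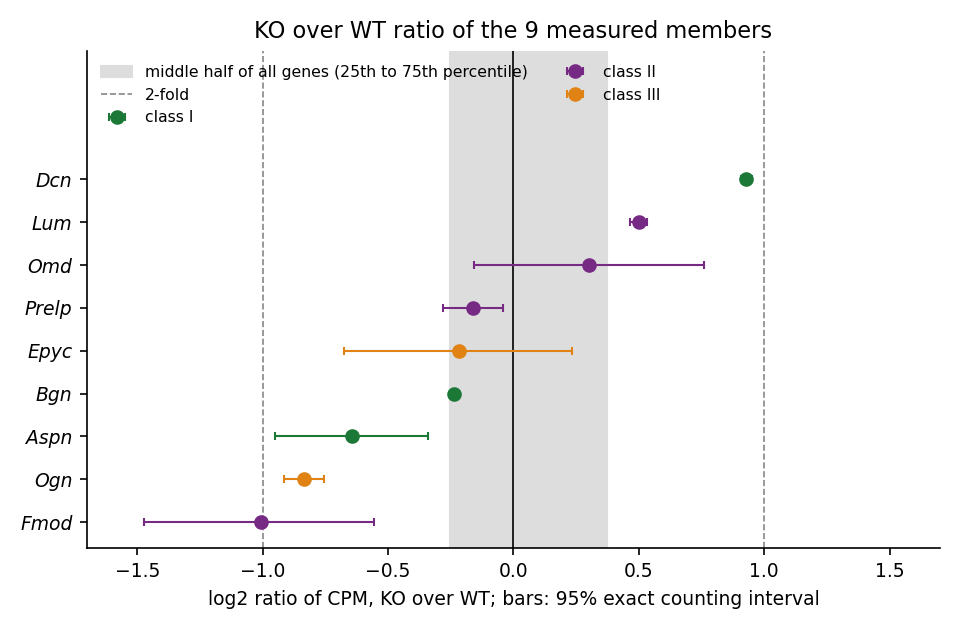
Log2 ratio of CPM, KO over WT, with no addition to CPM, for the 9 members with 50 or more counts; bars are 95% exact counting intervals, colours give the class, and the grey band spans the 25th to 75th percentile of all genes (-0.25 to 0.37). Dcn lies highest and Fmod lowest; classes I and II hold members on both sides of 0, and both class III members lie below it.

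Dcn (ENSMUSG00000019929) encodes decorin, which decorates collagen fibrils and binds TGF-beta. It had 995 CPM in the WT-labelled library and 1895 CPM in the KO-labelled library, which was 1.90-fold higher (counting interval 1.88 to 1.93). Its log2 ratio of 0.93 was reached or passed by 5.28% of all genes. The longest annotated transcript of Dcn, coding or not, has a GC content of 37.4%. After correction for the GC content and length of the longest annotated transcript of each gene, the log2 ratio of Dcn was 0.59. Relative to the median of the fibroblast markers it was 1.19, which is past 2-fold. The part of GC content in the difference was not tested.

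Bgn (ENSMUSG00000031375) encodes biglycan, the closest relative of decorin, which also acts as a ligand of Toll-like receptors when set free from the matrix. It had 2057 and 1746 CPM, 1.18-fold lower in the KO-labelled library (1.16 to 1.19). Its log2 ratio of -0.24 lay inside the middle range of all genes. Relative to the fibroblast markers it was 0.03. Bgn is on the X chromosome (positions 73483602 to 73495933), and the libraries differed in Xist, the RNA of the inactive X, with 4288 counts in the WT-labelled library and 0 in the KO-labelled library. Of 409 X-linked genes with 50 or more counts, 17 were 2-fold higher and 4 lower (4.47% and 2.82% of all genes). Their median log2 ratio was 0.14. With 1 library per group, a difference in the sex of the pooled mice could not be told apart from genotype. The part of such a difference in the value of Bgn or of any other gene was not tested.

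The ratio of decorin to biglycan counts within a library does not depend on how libraries are scaled. It was 0.484 in the WT-labelled library and 1.09 in the KO-labelled library, a 2.24-fold shift (counting interval 2.20 to 2.29). Set against the collagen genes, the same measure for Dcn shifted 2.33-fold over Col1a1 (2.28 to 2.38), 1.98-fold over Col1a2 (1.95 to 2.02) and 1.48-fold over Col3a1 (1.45 to 1.51). For Bgn the value in the KO-labelled library was 1.04 times that in the WT-labelled library over Col1a1 (1.02 to 1.06), 0.884 times over Col1a2 (0.869 to 0.898) and 0.658 times over Col3a1 (0.645 to 0.671). Decorin was thus higher relative to each of the 3 collagen genes, and biglycan was lower relative to Col1a2 and Col3a1. Such ratios of counts carry no correction for transcript GC content and length. With that correction, the log2 ratio of Dcn went from 0.93 to 0.59 and that of Bgn from -0.24 to -0.26.

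Aspn (ENSMUSG00000021388), the third class I gene, encodes asporin, which binds TGF-beta and collagen. It had 244 and 145 counts (9.10 and 5.83 CPM), 1.56-fold lower in the KO-labelled library (1.27 to 1.93). The 3 class I genes therefore spread from a log2 ratio of -0.60 for Aspn to 0.93 for Dcn.

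In class II, Lum (ENSMUSG00000036446) encodes lumican, which regulates fibril spacing in cornea and skin. It had 417 and 589 CPM, 1.41-fold higher in the KO-labelled library (1.38 to 1.45). Its log2 ratio was 0.50, or 0.19 after the GC and length correction. Fmod (ENSMUSG00000041559) encodes fibromodulin, which competes with lumican for a site on collagen and is abundant in tendon. It went the other way, with 130 and 60 counts (4.85 and 2.41 CPM). That was 2.01-fold lower with no addition to CPM (1.47 to 2.78), and a log2 ratio of -0.88 once 0.5 CPM was added, so that it fell short of the 2-fold call. Fmod counts per Lum count were 2.84-fold lower in the KO-labelled library (2.09 to 3.86).

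The other class II genes differed less or were scarce. Prelp, which encodes a protein that anchors basement membranes to the connective tissue beneath, had 47.2 and 42.2 CPM, 1.12-fold lower (1.03 to 1.21). Omd, which encodes osteomodulin of mineralising matrix, had 77 and 88 counts, and its interval spanned equality (1.23-fold higher, 0.897 to 1.69). Kera, whose product keratocan marks corneal keratocytes, had 1 count in each library (0.0373 and 0.0402 CPM), below the 3 counts that a count of 0 allows (0.112 and 0.121 CPM), and no ratio was formed. Aldh3a1, a crystallin-like enzyme gene of corneal cells, stood at 476 and 772 CPM in the same libraries, while the corneal keratin gene Krt12 was at 0 in both.

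In class III, Ogn (ENSMUSG00000021390) encodes osteoglycin, also called mimecan. It had 3787 and 1969 counts (141 and 79.1 CPM), 1.78-fold lower in the KO-labelled library (1.69 to 1.89). Its log2 ratio was -0.83, a value that 4.19% of all genes reached or passed downward, and -1.13 after the GC and length correction, which is past 2-fold. Epyc, which encodes epiphycan of growth cartilage, had 94 and 75 counts, 1.16-fold lower with an interval that spanned equality (0.850 to 1.60). Dcn counts per Ogn count shifted from 7.05 to 23.9, a 3.40-fold change (3.21 to 3.60).

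Most members sit in 3 gene clusters, which gives a grouping other than by class. On chromosome 10, Dcn (positions 97479609 to 97518143), Lum (97565128 to 97572703), Kera (97606879 to 97613692) and Epyc (97644068 to 97682454) follow each other within 203 kb on the plus strand (GENCODE M21, GRCm38). Along this row the FPKM in the WT-labelled library was 180 for Dcn, 180 for Lum, 0.0173 for Kera (1 count) and 1.45 for Epyc. The members higher in the KO-labelled library with intervals above equality, Dcn and Lum, are its first 2 genes. No other gene within 500 kb reached 50 counts. Epyc shares 1041 exon bases with the antisense gene Gm10754, which had 0 counts in both libraries. Whether reads in those bases were left out of the Epyc counts is not known.

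On chromosome 13, Aspn (49544443 to 49567565), Omd (49582462 to 49592822) and Ogn (49608046 to 49624501) lie within 80.1 kb, next to the related gene Ecm2. Ogn, Aspn and Ecm2 (96 and 47 counts, 1.90-fold lower, 1.32 to 2.75) were all lower in the KO-labelled library, while Omd between them was not. Ogn counts per Omd count went from 49.2 to 22.4, which is 0.455 times the value in the WT-labelled library (0.333 to 0.621). Ogn counts per Aspn count went from 15.5 to 13.6, with an interval that spanned equality (0.875 times, 0.707 to 1.08). The 9 other genes with 50 or more counts within 500 kb, Ecm2 included, had a median log2 ratio of 0.41, from -0.77 to 0.91. All 3 members lie inside the antisense gene Cenpp, which had only 50 and 22 counts and shares 7 exon bases with Aspn and 0 with Omd and Ogn, so strand-blind counting could add little to them.

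On chromosome 1, Prelp (133910304 to 133921414, minus strand) and Fmod (134037254 to 134048277, plus strand) lie within 138 kb. Prelp shares 350 exon bases with the antisense gene Gm15851, which had 0 counts in both libraries. Whether reads in those bases were left out of the Prelp counts is not known. Of the 14 other measured genes within 500 kb, 4 passed 2-fold, where 7.29% of all genes did in either direction. The one before Prelp, Atp2b4, which encodes a calcium pump of the cell membrane, lay farthest from 0 and was higher in the KO-labelled library (447 and 1686 counts, log2 ratio 1.99). The 5 measured genes that follow Fmod were all lower in the KO-labelled library, namely Btg2 (log2 ratio -0.96), Chil1 (-1.49), Mybph (-1.20), Adora1 (-1.13) and Ppfia4 (-0.65). The next 5 measured genes were all above 0. Atp2b4 and this run were singled out after their values were seen. Chil1, which encodes a secreted chitinase-like protein, had 14272 and 4710 counts.

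**Figure D4:**
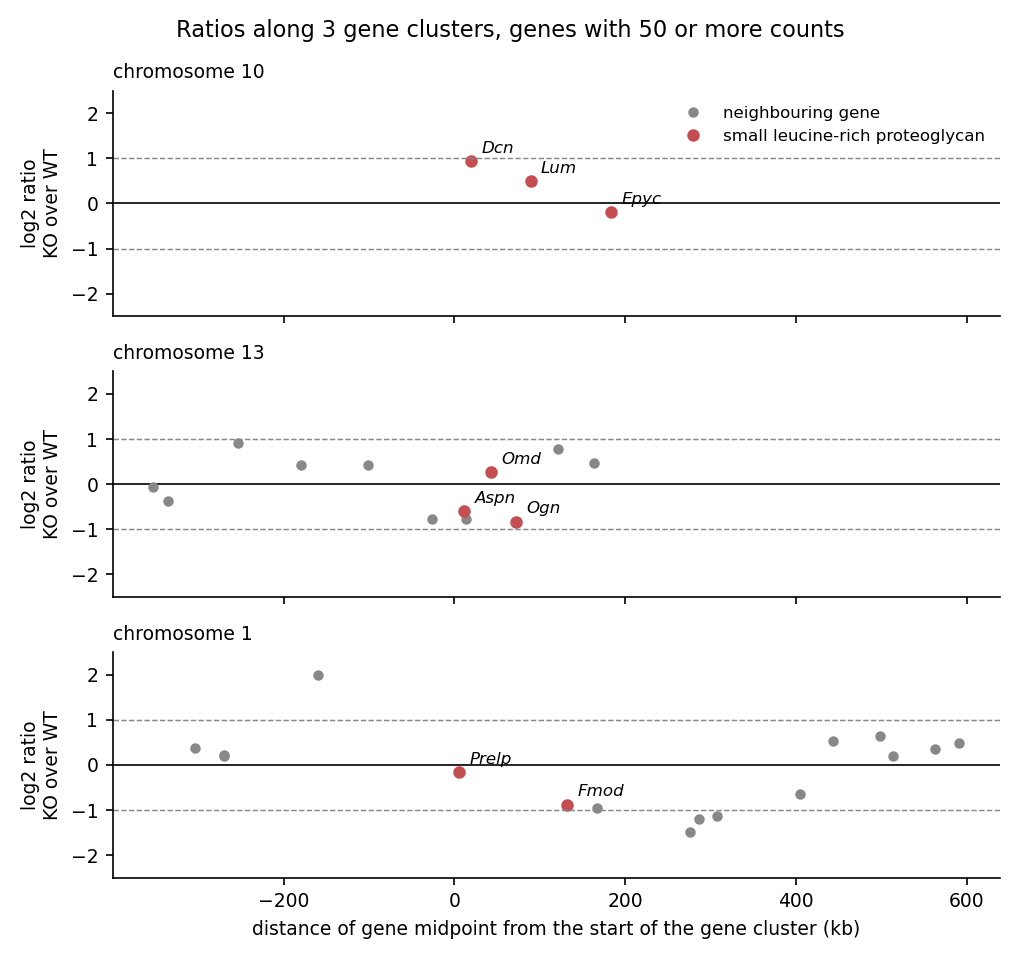
Log2 ratio, KO over WT (CPM + 0.5), of genes with 50 or more counts against the distance of the gene's midpoint from the start of the cluster in kb, for members (red) and neighbouring genes (grey) on chromosomes 10, 13 and 1; dashed lines mark 2-fold. Dcn and Lum stand above 0, Ogn and Aspn below, and on chromosome 1 the measured genes from Prelp to Ppfia4 lie below 0 between higher neighbours.

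The stretches upstream of 3 members are shown as examples of how base composition and motifs differ there, namely Bgn, the member with the highest mean FPKM, and Ogn and Aspn of chromosome 13. Dcn and Lum had no entry. RefSeq promoter entries (GRCm38.p6) matched 8 of 10 members, and the 250 bases before the annotated start are printed 5' to 3'. Capitals mark matches on either strand to the TATA box motif TATAAA, the CCAAT box, the AP-1 motif TGANTCA or the Sp1 motif GGGCGG, and matches may overlap.
Bgn, chrX:73483351-73483600, plus strand: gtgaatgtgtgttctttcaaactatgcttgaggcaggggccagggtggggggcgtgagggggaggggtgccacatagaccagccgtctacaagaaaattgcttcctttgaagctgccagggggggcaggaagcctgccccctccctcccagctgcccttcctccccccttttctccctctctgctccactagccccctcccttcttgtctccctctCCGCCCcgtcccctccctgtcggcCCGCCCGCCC
Ogn, chr13:49607765-49608014, plus strand: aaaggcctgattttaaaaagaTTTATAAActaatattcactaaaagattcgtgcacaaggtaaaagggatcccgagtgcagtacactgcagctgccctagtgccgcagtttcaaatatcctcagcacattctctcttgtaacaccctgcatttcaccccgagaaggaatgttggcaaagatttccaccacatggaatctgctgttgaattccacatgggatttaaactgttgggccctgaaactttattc
Aspn, chr13:49544193-49544442, plus strand: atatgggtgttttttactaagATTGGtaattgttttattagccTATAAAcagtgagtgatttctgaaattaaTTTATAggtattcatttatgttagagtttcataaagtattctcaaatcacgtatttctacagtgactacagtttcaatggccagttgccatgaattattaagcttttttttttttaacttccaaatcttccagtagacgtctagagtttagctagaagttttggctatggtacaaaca
The Bgn window has a GC content of 64.4%, GGGCGG matches and no TATAAA match. The Ogn and Aspn windows have a GC content of 42.0% and 30.0%, and both hold TATAAA. No entry of Omd, Kera, Epyc, Fmod or Prelp holds that motif. Of the other members, Omd (38.4%), Kera (42.4%) and the 2 entries of Epyc (39.2% and 31.2%) were also below the median of all entries in GC content, as was Fmod (51.2%), and Prelp (55.6%) was above it. Dcn and Lum, the members higher with intervals above equality, had no entry, so these windows cannot compare higher with lower members in GC content. Over 32851 promoter entries the median GC content of this window was 52.4%, and TATAAA was found in 12.4%, CCAAT in 33.8%, TGANTCA in 6.75% and GGGCGG in 32.7%. These matches describe letters, not binding sites.

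Of 8 further genes of the family, 5 had 50 or more counts. Of these, 0 were past 2-fold in either direction (7.29% of all genes). All 5 log2 ratios were below 0, with a median of -0.38. Tsku, which encodes the secreted signalling inhibitor tsukushi, had 1426 and 1013 counts (1.31-fold lower, 1.20 to 1.42). Podnl1 had 360 and 186 counts (log2 ratio -0.80), Podn 270 and 207, and Chadl 109 and 86. Optc (1 and 2 counts), Chad (1 and 0) and Nyx (19 and 17) were below the minimum. Optc encodes opticin of the vitreous, and Nyx encodes nyctalopin of retinal bipolar cells.

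Collagens are the main partners of the family. Of 14 measured genes on that list, 2 were 2-fold higher and 1 lower (4.47% and 2.82% of all genes), and 11 were neither. Their median log2 ratio was 0.01. Col5a3 (649 and 1684 counts, 2.80-fold higher) and Col5a2 (4078 and 7996, 2.11-fold higher) encode type V chains that start fibrils. Col14a1, which encodes a fibril-associated collagen of tendon and skin, had 2120 and 544 counts (3.62-fold lower, 3.29 to 3.98). By mean FPKM of the libraries the highest were Col1a2 (235 and 217) and Col1a1 (204 and 161), although Col3a1 (136 and 169) was above Col1a1 in the KO-labelled library. The call of Col5a2 was lost with the GC and length correction. Most tendon markers were lower beside Fmod and Ogn. Of 6 measured, 5 had log2 ratios below 0, with a median of -0.79. Past 2-fold was 1, where 7.29% of all genes were in either direction. Scx, the transcription factor gene of tendon cells, had 523 and 271 counts, Tnmd 207 and 108, and Thbs4 793 and 157. Col12a1 had 5569 and 2776 counts and Mkx 560 and 391, while Egr1 went the other way with 1394 and 1413 (log2 ratio 0.13). Comp, a matrix gene of cartilage and tendon, had a log2 ratio of -3.19, while the cartilage proteoglycan gene Acan was at 0 in both libraries. The other measured cartilage markers were Sox9 (log2 ratio -0.48) and Col2a1 (0.46). The part of tendon-type cells in the lower Fmod, Ogn and Aspn was not tested.

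The 26 measured genes of linker, chondroitin and dermatan sulfate synthesis had a median log2 ratio of 0.18. Of these, 3 were 2-fold higher and 0 lower (4.47% and 2.82% of all genes), and 23 were neither. The 3 were Xylt1 (399 and 828 counts, 2.24-fold higher, 1.98 to 2.53), which starts the chain on the core protein, Csgalnact1 (749 and 1802, 2.59-fold higher, 2.38 to 2.83), which commits it to chondroitin, and Chsy3 on 17 and 54 counts. The calls of Xylt1 and Chsy3 were lost by FPKM after a constant was added to each value. The deposited FPKM alone was past 2-fold for both, at 1.63 and 3.51 for Xylt1 and 0.229 and 0.754 for Chsy3. The call of Chsy3 was also lost with 2 CPM added or a minimum of 200 counts. The sugar transferase gene B3gat3 (FPKM 103 and 80.0) and the sulfate donor transporter gene Slc35b2 (FPKM 89.6 and 69.6) had the highest mean FPKM. The epimerase gene Dse, which makes dermatan from chondroitin, had a log2 ratio of 0.08. Of 8 measured keratan sulfate genes, 0 passed 2-fold in either direction (7.29% of all genes), with a median of 0.07. The fucosyltransferase gene Fut8 (log2 ratio 0.92) and the sulfotransferase gene Chst1 (-0.38) lay farthest from 0, and St3gal2 (FPKM 42.5 and 39.8) and B4galt1 (33.8 and 37.8) had the highest mean FPKM.

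The 27 measured receptors, ligands and partners had a median log2 ratio of 0.10. Of these, 23 did not reach 2-fold, 0 were 2-fold lower (2.82% of all genes) and 4 were 2-fold higher (4.47% of all genes). They were Bmp2 (303 and 988 counts, 3.51-fold, 3.09 to 4.01), the hyaluronan receptor gene Cd44 (3857 and 7653, 2.14-fold), the purinergic receptor gene P2rx7 (98 and 197, 2.17-fold) and the VEGF receptor gene Kdr on 8 and 58 counts. The call held for Bmp2 under every alternative that was run. It was lost for Kdr and P2rx7 with 2 CPM added, a minimum of 200 counts or FPKM with a constant added. The deposited FPKM alone was past 2-fold for both, at 0.035 and 0.263 for Kdr and 0.648 and 1.35 for P2rx7. The call of P2rx7 was also lost with TMM or median-of-ratios factors, and those of Cd44 and P2rx7 with the GC and length correction. The biglycan receptor genes Tlr2 (log2 ratio 0.76) and Tlr4 (0.75) did not reach 2-fold, nor did the decorin receptor gene Egfr (-0.56) or Tgfb1 (0.10). By mean FPKM the highest were Fn1 (991 and 919) and Thbs1 (150 and 137), although Itgb1 (114 and 168) was above Thbs1 in the KO-labelled library. Macrophage and microglia markers were higher beside these receptors, with a median of 1.91. Of 10 measured, 9 were past 2-fold, where 7.29% of all genes were in either direction. The 1 that was not, Cd14, is also on the receptor list (3412 and 2828 counts, log2 ratio -0.16). Endothelial markers, a list that holds Kdr, were higher too, with a median of 1.08. Of 8 measured, 4 were 2-fold higher and 0 lower (4.47% and 2.82% of all genes). Their levels were low, with a sum over the list of 28.1 and 53.3 CPM. Of its 10 genes, 4 lay under 1 CPM in the WT-labelled library and 1 in the KO-labelled library. The part of either cell type was not tested.

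The 15 measured genes of processing and cleavage had a median log2 ratio of 0.06. Of these, 13 did not reach 2-fold, 0 were 2-fold lower (2.82% of all genes) and 2 were 2-fold higher (4.47% of all genes). They were the macrophage elastase gene Mmp12 (303 and 760 counts, 2.70-fold) and Tll1 (416 and 946, 2.45-fold, 2.18 to 2.76), which belongs to the family of proteases that trim biglycan and procollagen. Mmp9 had a log2 ratio of 0.61. By mean FPKM the highest were Mmp2 (370 and 419) and Mmp3 (403 and 371), although Pcolce, which encodes an enhancer of procollagen cleavage, was above both in the WT-labelled library (411 and 316). The list of other proteoglycan core proteins shares Cd44 and Tgfbr3 with the receptor list, and its 20 measured genes had a median log2 ratio of 0.05. Of these, 18 did not reach 2-fold, 0 were 2-fold lower (2.82% of all genes) and 2 were 2-fold higher (4.47% of all genes). Prg4, which encodes the joint lubricant lubricin, had 215 and 850 counts (4.26-fold higher, 3.66 to 4.97), and Cd44 was the other. Gpc3 had 212 and 101 counts (log2 ratio -0.88), and Gpc1 (FPKM 180 and 180) and Sdc4 (198 and 159) had the highest mean FPKM. Esm1 (127 and 201) was above both in the KO-labelled library.

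**Figure D5:**
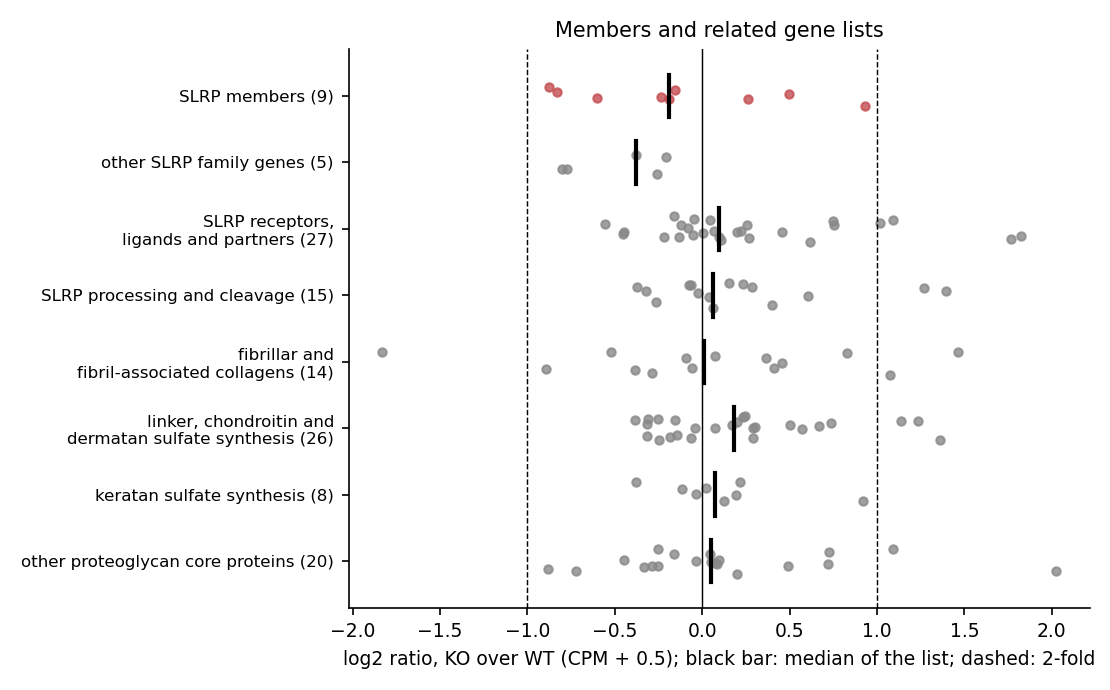
Log2 ratio, KO over WT (CPM + 0.5), of each gene with 50 or more counts in the members (red) and 7 related lists (grey), with the number of genes in brackets and the list's median as a black bar; points are spread vertically only for legibility. The members span -0.88 to 0.93 around a median of -0.19, and the 5 other family genes all lie below 0.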

How the data were processed

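Per the labels, ribosomal RNA was removed from pooled-retina RNA (Ribo-Zero) and the NEBNext Ultra library kit was used, which does not mark strand. HISAT2 and the build mm10, also called GRCm38, are named in the submitters' processing notes. How reads were counted, on which annotation and strand, and which total stands behind FPKM were not stated. The authors deposited whole-number read counts and FPKM values per gene, per the file headers. Of the genes, 4 whose ratio of count to FPKM differed by over 1% between the tables were left out.

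CPM was the count over the library total, and the log2 ratio was taken after adding 0.5 CPM. A gene needed 50 counts in the higher library and was called at 2-fold. Folds are CPM ratios with 95% exact (Clopper-Pearson) intervals. Ratios between members use intervals from the summed inverse counts. Lists were described by counts and medians. Named genes were the members, the further family genes, the 3 of each list farthest from 0 and the 2 with the highest FPKM. Up to 3 of each marker list, 3 genes nearest in level to each of 3 members, and Xist were also named. Others named, such as Egfr, Tgfb1, Tlr2, Tlr4, Dse, Itgb1, Pcolce, Col3a1 and Esm1, and the tendon genes Scx, Tnmd and Thbs4, were chosen after their values were seen. The members and lists were chosen with earlier results of these data known. GENCODE M21 gave positions for 52487 genes. The alternatives were TMM and median-of-ratios factors, a total without the 20 most counted genes, 0.1 or 2 CPM added, no minimum or one of 200 counts, 1.5-fold, FPKM with 0.5 added, a correction over 10 bins each of GC content and length, and centring on fibroblast markers. GC content and length in that correction were those of the longest annotated transcript of each gene, coding or not. The calculations were tested on simulated data. Software was edgeR 4.0.16 in R 4.3.3 for the TMM factors and Python 3.11.15 with scipy 1.17.1, pandas 2.3.3, numpy 2.4.6 and, for plots, matplotlib 3.10.9.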

Additional observations from a re-analysis of the deposited data

How the results depend on the processing

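No paired analysis was possible because each group has 1 library, and for the same reason no replicate could be left out. Dcn and Lum stayed above 0 and Ogn, Aspn and Fmod below 0 under every alternative that gave them a value, with ranges of 0.59 to 1.19 for Dcn, 0.19 to 0.76 for Lum, -1.13 to -0.57 for Ogn, -0.90 to -0.34 for Aspn and -0.98 to -0.62 for Fmod. The sign of Bgn (0.03), Prelp (0.10) and Epyc (0.07) changed with centring on fibroblast markers, and that of Omd (-0.04) with the GC and length correction. With a 1.5-fold threshold, 1 member was higher and 3 were lower (13.3% and 8.88% of all genes). At 2-fold, 1 was lower with the GC and length correction (Ogn) and 1 higher with centring (Dcn).

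Centring moved the median of all genes by 0.26 and gave 1027 genes higher and 201 lower, against 554 and 349 as reported. The counts were 351 and 214 with 2 CPM added, 340 and 213 with a minimum of 200 counts, and 1645 and 1100 at 1.5-fold. By FPKM, with a constant added to each value here and below, 322 were higher. Of the further family genes, 2 of 5 measured were called at 1.5-fold and 1 after the GC and length correction, against 0 as reported. Of the receptors, ligands and partners, 7 of 27 measured were called at 1.5-fold. On that list 2 were called with 2 CPM added, with the minimum of 200 counts, by FPKM or after the GC and length correction, against 4. At 1.5-fold, 5 of 14 measured collagens and 5 of 26 linker, chondroitin and dermatan sulfate genes were called. So were 1 of 8 keratan sulfate genes and 6 of 20 other core proteins. For all these counts at 1.5-fold, the share of all genes called in either direction was 22.2%. By FPKM 1 linker, chondroitin and dermatan sulfate gene was called, and with centring 1 keratan sulfate gene. The low counts of Omd, Epyc, Fmod and Kera limit their precision.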

Other observations

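For the 3 members with the highest FPKM, the protein-coding genes nearest in log2 CPM over the 2 libraries, among 11608 compared, were as follows. Nearest to Dcn were the chemokine gene Cxcl5 (830 and 1877 CPM, distance 0.26), the matrix gene Efemp1 (1138 and 1661 CPM, 0.27) and the protease inhibitor gene Serpine2 (1115 and 1546 CPM, 0.34). Nearest to Bgn were Rpl13 (2179 and 1686 CPM, 0.10), Calr (1988 and 1610 CPM, 0.13) and Rps15 (2227 and 1681 CPM, 0.13). Nearest to Lum were Gja1 (410 and 618 CPM, 0.07), Hsp90b1 (399 and 607 CPM, 0.08) and Ppia (446 and 604 CPM, 0.10). A likeness over 2 libraries describes only these levels.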
